A study of Mus musculus with 12 samples.

Results

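The genes described here write, erase and read DNA methylation, and they comprise the writers Dnmt1, Dnmt3a and Dnmt3b, the erasers Tet1, Tet2 and Tet3, and the readers Mbd1, Mbd2 and Uhrf1. They were chosen by name, and each was represented by the brightest of its probe sets that carried no other gene. All 9 were found among the 18820 genes with such a probe set. RNA of the medial prefrontal cortex came from C57BL/6N mice aged 12 weeks and was hybridised to 1 Affymetrix Mouse Gene 1.1 ST array per animal. The 6 control offspring came from dams given saline intravenously, and the 6 PolyI:C offspring from dams given 5 mg/kg of poly(I:C), which mimics viral infection as a synthetic RNA of paired strands, by the same route. Both injections were given on gestation day 17, and the offspring had gone through cognitive and behavioural tests as adults before the tissue was taken. The comparison asks whether prenatal immune activation leaves a lasting difference in cortical expression. The titles call the samples biological replicates, but litter, sex and array strip are absent from the labels at hand, so each p-value reflects only how far the sampled animals varied. The groups also carry separate runs of sample numbers in the labels (1 to 12 for controls and 25 to 33 for PolyI:C), so any effect that follows those numbers cannot be told apart from the treatment.

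In mammalian DNA, methyl groups sit mostly on cytosines that are followed by guanine, the CpG dinucleotides. Dnmt3a and Dnmt3b set new methyl marks, and Dnmt1 copies existing marks to the new strand after replication, guided there by Uhrf1, which recognises DNA methylated on a single strand. The Tet enzymes oxidise methylated cytosine to hydroxymethylcytosine and further products, a path towards removal, and the oxidised base is abundant in neurons. Mbd1 and Mbd2 bind methylated CpGs through a shared domain and bring repressor complexes to them. Few cortical cells divide in adulthood, and Dnmt3a is known as the principal enzyme of new methylation in postnatal neurons.

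Because CpGs are what these proteins act on, the promoters of the genes themselves are shown by their CpG content. RefSeq start sites of build GRCm38.p6 were matched for 7 of the 9 genes, and Mbd1 and Mbd2 were not analysed here. The motif searched was CG, which reads the same on both strands, in the 250 bases before each start. Of 32841 such windows, 92.1% held at least 1 CG, with a median of 6. For each gene, the 30 bases richest in CG are given below from the start whose window held most of them, and for Dnmt1 also from its outermost start, 5′ to 3′ with each CG in capitals.
Tet2 (chr3:133544415-133544444, minus strand): CGctccCGCGctCGCGccCGctcCGctCGc
Dnmt3a (chr12:3807029-3807058, plus strand): CGgCGCGggCGgCGgCGCGagcagaggaCG
Tet3 (chr6:83441690-83441719, minus strand): CGggCGCGggattggctggCGCGCGCGcCG
Uhrf1 (chr17:56304115-56304144, plus strand): CGccCGagtCGggtttCGCGCGcccaggCG
Dnmt3b (chr2:153649372-153649401, plus strand): CGgCGggggCGcccccCGggCGggggCGgg
Tet1 (chr10:62887325-62887354, minus strand): gtaccCGCGcactcCGctCGtggaacactg
Dnmt1, start richest in CG (chr9:20952818-20952847, minus strand): CGCGCGCGCGaaaaagcCGgggtctCGttc
Dnmt1, outermost start (chr9:20959912-20959941, minus strand): CGctctgtgccaggtactctcaatgattgg

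The Tet2 window held 51 CGs in 250 bases, more than 99.9% of all windows, at a GC content of 83.6%. The richest Dnmt3a window held 40 (more than 98.7% of windows), and its other starts held 38 and 15. Uhrf1 had 30 and 10 at its starts, Dnmt3b 21, Tet3 17 and Tet1 15. Dnmt1, which is known to use alternative first exons in oocytes and in somatic cells, held 26, 7 and 2 at its starts. Of the 12 windows of these genes, 7 had a GC content of at least 50% together with a ratio of observed to expected CGs of at least 0.6, against 31.0% of all windows. All windows together cover 27018 genes, against 18820 with a probe set of their own, and no matched set of genes was compared. The 12 windows are not independent, since the Dnmt3a windows with 40 and 38 CGs overlap and are both counted. No methylation was measured in the data used here, so these counts describe the sequence alone.

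None of the 9 genes passed an adjusted p under 0.05 in limma, the threshold used throughout, where 2.83% of the 23099 annotated probe sets passed. At an unadjusted p under 0.05, 3 of the 9 differed, all towards higher PolyI:C means, against 19.1% of all probe sets, 11.7% higher and 7.33% lower. After quantile normalization 2 of the 9 had such a p. As first fitted, the 3 were 1 eraser, Tet2, 1 reader, Mbd1, and 1 writer, Dnmt3a. The other 6 lay within 0.03 of 0 on the log2 scale. Over the 9 genes the median log2 difference, PolyI:C minus control, was 0.008, and it was 0.003 over all annotated probe sets. The median absolute log2 difference was 0.009, against 0.044. All levels below are log2 expression, errors of levels are SD over 6 animals and errors of differences are the standard errors (SE) of the limma fit, and levels of different probe sets are not compared, since probes differ in how strongly they hybridise.

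**Figure D1:**
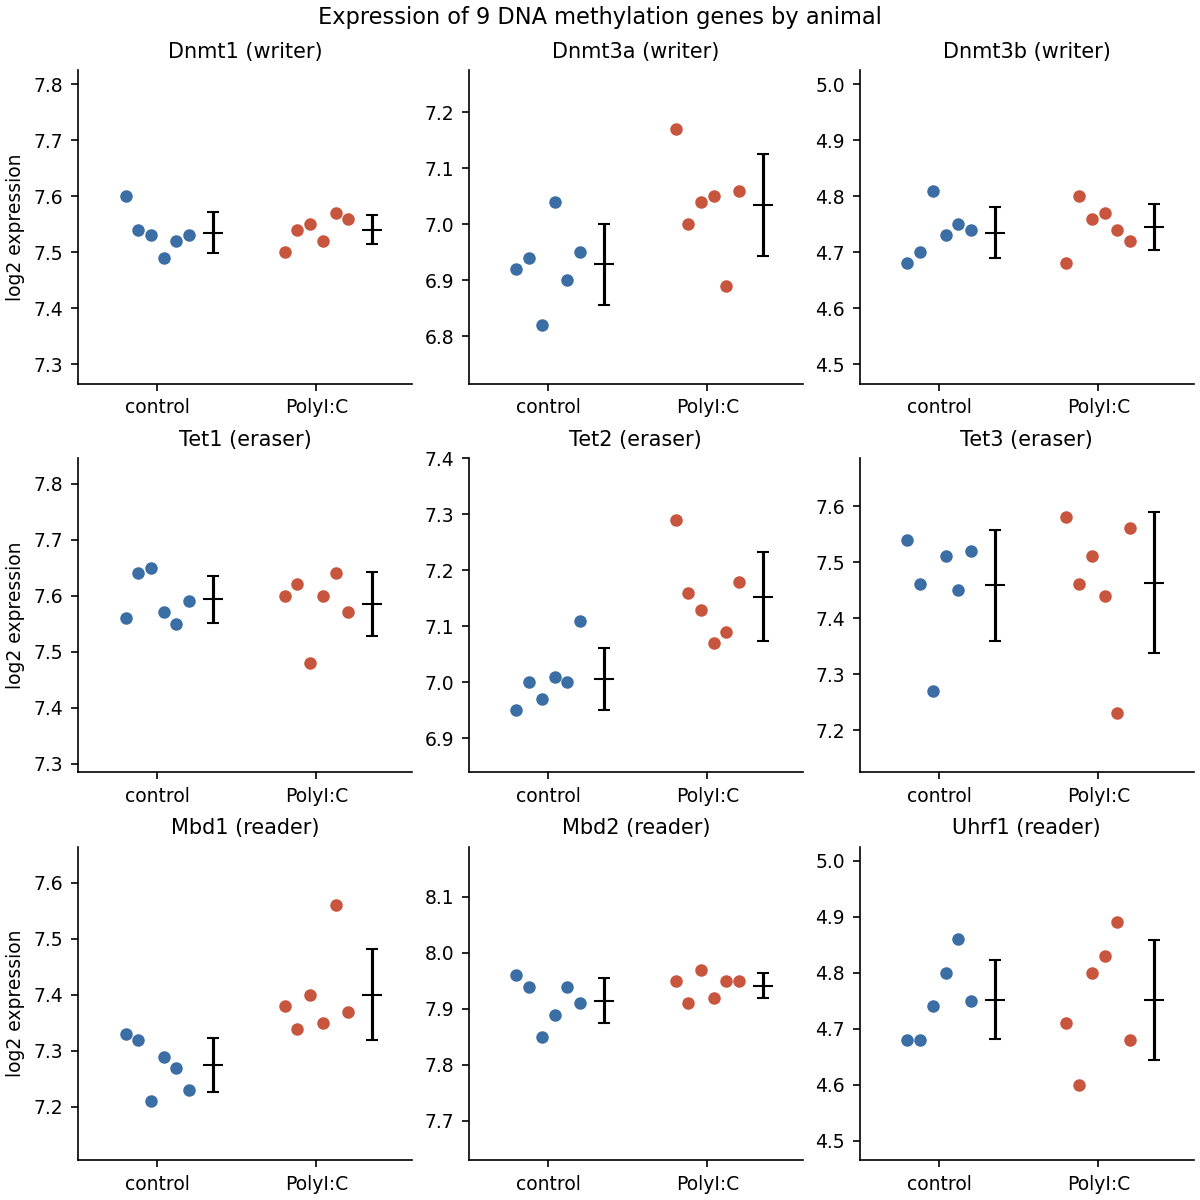
Log2 expression of each gene (y axis, every panel spanning the same range of log2 units) in 6 control and 6 PolyI:C animals, 1 point per animal in order of replicate number, with the group mean and SD in black. Mbd1 shows no overlap between groups, Tet2 overlaps through 1 control animal, and the PolyI:C points of Dnmt1, Dnmt3b, Tet1, Mbd2 and Uhrf1 lie around the controls.

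Among the erasers, Tet2 came closest to the threshold. Its level (probe set 10502284) was 6.95 at the lowest, 7.00 at the median and 7.11 at the highest in controls, and 7.07, 7.15 and 7.29 in PolyI:C animals. The groups overlapped only through control 6, at 7.11, while the other 5 controls lay below every PolyI:C animal. The means were 7.01 ± 0.0544 and 7.15 ± 0.0769 (SD, n = 6 each), a log2 difference of 0.148 ± 0.039 (SE; 95% interval 0.066 to 0.230), or 10.8% on the linear scale. All 6 PolyI:C animals were above the control mean. The adjusted p in limma was 0.050014, just outside the threshold, and by unadjusted p Tet2 ranked 656 of 23099 probe sets, where 653 passed and 2.84% had an adjusted p no higher than its own.

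The side of the threshold on which Tet2 fell depended on the setting. Over 23 alternatives its log2 difference ran from 0.113 to 0.171, and it passed in 8 of them. It passed without control 6 (adjusted p = 0.0391) and without PolyI:C 5 (0.0449), and in none of the other 10 fits that left out 1 animal, where the adjusted p reached 0.101. It did not pass after quantile normalization (0.143), which also gave the smallest difference, nor with each array centred on its median (0.0653). Removing the probe sets below the median brightness gave the lowest adjusted p, 0.0336. PolyI:C 1, at 7.29, had the highest level, and without it the difference was 0.121.

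**Figure D2:**
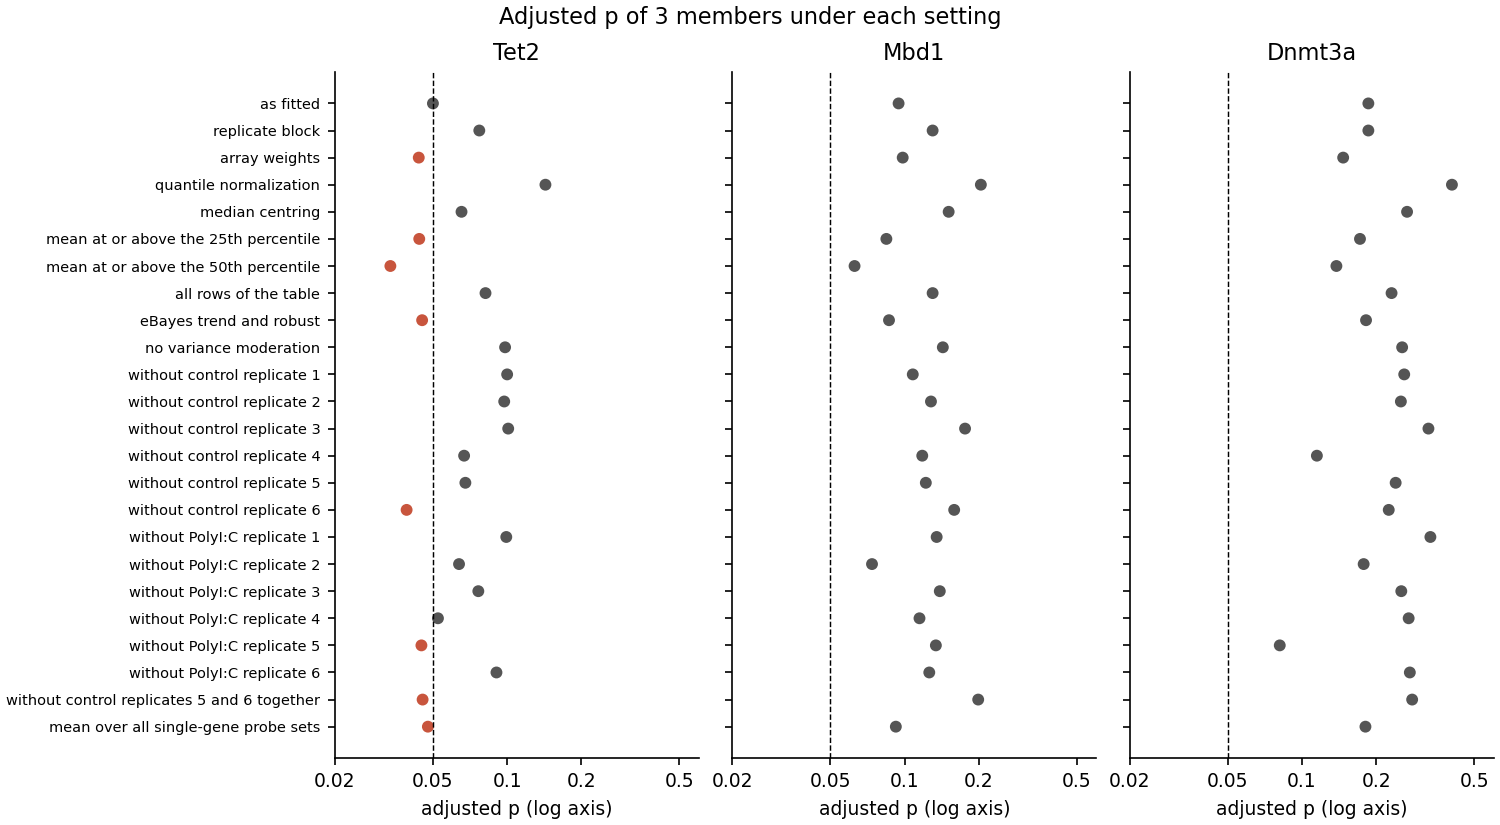
Adjusted p in limma (x axis, log scale) for Tet2, Mbd1 and Dnmt3a as fitted and under each of the 23 alternatives (y axis), with the threshold of 0.05 as a dashed line and red points below it. Tet2 lies on both sides of the line, between 0.0336 and 0.143, and no point of Mbd1 or Dnmt3a is below it.

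Tet3 and Tet1 showed no such difference. Tet3 (probe set 10545682) ranged from 7.27 to 7.54 in controls, with a median of 7.49, and from 7.23 to 7.58 in PolyI:C animals, with a median of 7.48. The groups covered nearly the same range, each with 1 animal well below the others. The log2 difference was 0.004 ± 0.057 (SE; 95% interval -0.117 to 0.125; adjusted p = 0.979), and it turned to -0.0276 with quantile-normalized arrays and to -0.00616 with median-centred ones. The other probe set of Tet3 (10545692) differed by 0.082 ± 0.050 and did not pass (adjusted p = 0.394).

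Tet1 was the only member with 3 probe sets of its own. On the brightest (10369702) the controls ran from 7.55 to 7.65 with a median of 7.58, and the PolyI:C animals from 7.48 to 7.64 with a median of 7.60. The groups overlapped throughout, apart from PolyI:C 3 at 7.48, below every control. On the log2 scale the difference was -0.009 ± 0.033 (SE; adjusted p = 0.915). The other probe sets differed by -0.003 ± 0.032 (10369690) and -0.104 ± 0.055 (10369688; adjusted p = 0.315). On group-centred values over the 12 animals, probe set 10369702 correlated at r = 0.74 with 10369690 and at r = -0.54 with 10369688, so 10369688 varied between animals unlike the other two. The probe sets of Tet3 correlated at r = 0.68.

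Of the readers, Mbd1 was the only member whose groups did not overlap, which was so for 2.37% of all annotated probe sets. The controls had a lowest, median and highest level of 7.21, 7.28 and 7.33 (probe set 10456622), and the PolyI:C animals 7.34, 7.38 and 7.56. The gap between the highest control and the lowest PolyI:C animal was small, and PolyI:C 5, at 7.56, stood apart from the rest of its group, whose next highest level was 7.40. The means were 7.28 ± 0.0490 and 7.40 ± 0.0830 (SD, n = 6 each), a log2 difference of 0.124 ± 0.039 (SE; 95% interval 0.041 to 0.206), or 8.94%. In limma this did not pass (adjusted p = 0.0946), nor did it under any of the 23 alternatives, whose adjusted p lay between 0.0627 and 0.204. Without PolyI:C 5 the difference was 0.0909 (adjusted p = 0.134).

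Mbd2 joins the nucleosome remodelling and deacetylase complex (NuRD). Its level (probe set 10456566) ran from 7.85 to 7.96 in controls and from 7.91 to 7.97 in PolyI:C animals, with medians of 7.92 and 7.95. All but 1 of the PolyI:C animals lay within the range of the controls. PolyI:C minus control gave a log2 difference of 0.026 ± 0.028 (SE; 95% interval -0.034 to 0.086; adjusted p = 0.664) and it was -0.00501 after quantile normalization.

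Uhrf1 was dim, with 33.1% of probe sets below it, and small changes of a dim probe set are compressed by background. Its level (probe set 10446074) was 4.68 to 4.86 in controls and 4.60 to 4.89 in PolyI:C animals, with a median of 4.75 in both. The PolyI:C animals spread around the controls on either side. The log2 difference was -0.002 ± 0.048 (SE; 95% interval -0.103 to 0.099; adjusted p = 0.988).

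Among the writers, Dnmt3a had the highest difference. The controls had a lowest, median and highest level of 6.82, 6.93 and 7.04 (probe set 10394209), and the PolyI:C animals 6.89, 7.04 and 7.17. PolyI:C 1, 4 and 6 were above every control, whereas PolyI:C 5, at 6.89, was below the control mean. The means were 6.93 ± 0.0709 and 7.04 ± 0.0885 (SD, n = 6 each), a log2 difference of 0.107 ± 0.044 (SE; 95% interval 0.015 to 0.2), or 7.73%. This did not pass in limma (adjusted p = 0.186), and over the 23 alternatives the adjusted p lay between 0.0813, without PolyI:C 5, and 0.406, after quantile normalization.

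Dnmt1, the maintenance enzyme, was measured with little spread. Its level (probe set 10591369) ran from 7.49 to 7.60 in controls, with a median of 7.53, and from 7.50 to 7.57 in PolyI:C animals, with a median of 7.55. Every PolyI:C animal lay within the range of the controls. The log2 difference was 0.008 ± 0.028 (SE; 95% interval -0.051 to 0.068; adjusted p = 0.904), and it was -0.0231 with quantile-normalized arrays and -0.00204 with median-centred ones.

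Dnmt3b, known mainly from early development, was dim like Uhrf1, with 32.9% of probe sets below it. Its level (probe set 10477325) ran from 4.68 to 4.81 in controls and from 4.68 to 4.80 in PolyI:C animals, with medians of 4.74 and 4.75, so the groups coincided. On the log2 scale the difference was 0.008 ± 0.031 (SE; 95% interval -0.058 to 0.074; adjusted p = 0.917), and it was -0.00234 after median centring.

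A wider list of 84 genes, which act with these proteins or are relatives of such genes, was examined in the same fit. Of these, 70 were measured by a probe set of their own and 14 were not analysed here. Of the 70, 1 rose, 1 fell and 68 did not pass, where 2.02% of all probe sets rose and 0.805% fell. Without adjustment, 13 had p under 0.05, of which 11 were higher (11.7% of all probe sets were) and 2 lower (7.33%). The median log2 difference of the 70 was 0.012, and 42 of them, or 60.0%, had a higher mean in PolyI:C animals, against 52.0% of all probe sets.

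The gene that fell was Cdca7, a zinc-finger partner of the chromatin remodeller Hells, which is needed to keep DNA methylated. Its level was 5.61, 5.68 and 5.84 at the lowest, median and highest in controls and 5.17, 5.43 and 5.53 in PolyI:C animals. Every PolyI:C animal lay below every control. The difference was -0.293 ± 0.053 on the log2 scale (SE; adjusted p = 0.0117 in limma), and it was smallest, at -0.247, without PolyI:C 4 (adjusted p = 0.0136). On the linear scale Cdca7 was 1.22-fold lower. Hells itself was dim and differed by 0.028 ± 0.027 (adjusted p = 0.615). Several marker lists also had lower means in PolyI:C animals (values below), among them striatal neurons, myelin and dividing cells. Without controls 5 and 6, which had the highest level of the striatal markers, the Cdca7 difference was -0.258 (adjusted p = 0.0296). Without those animals the striatal markers still differed by -0.166, against -0.311 with all animals. The myelin markers differed by -0.354, against -0.362, and the markers of dividing cells by -0.0699, against -0.117. The part of these lists in the Cdca7 difference was not tested.

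The gene that rose was Ogt, an enzyme that attaches sugar residues to nuclear proteins and binds Tet2 and Tet3. Its level was 8.88, 9.00 and 9.06 in controls and 9.12, 9.16 and 9.25 in PolyI:C animals, again as the lowest, median and highest. Every PolyI:C animal lay above every control. PolyI:C minus control gave a log2 difference of 0.183 ± 0.036 (SE; adjusted p = 0.0163 in limma), or 1.14-fold, and the adjusted p stayed at or below 0.0461 in the fits without 1 animal. Both calls, Ogt and Cdca7, were lost without variance moderation (adjusted p = 0.0543 and 0.0630).

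Among the other writers and maintenance partners, 1 of 13 fell and 12 did not pass, and 6 of the 13 had an unadjusted p under 0.05, a level reached by 19.1% of all probe sets. Zfp57, a zinc-finger protein that holds methylation at imprinted control regions, came nearest, with levels of 6.04 to 6.37 in controls and 6.22 to 6.54 in PolyI:C animals. Its log2 difference was 0.229 ± 0.062 (SE; adjusted p = 0.0584), and it passed in 5 of 23 alternatives, with the lowest adjusted p (0.0202) without controls 5 and 6. Setdb1, the histone methyltransferase that acts with Zfp57, differed by 0.159 ± 0.046 (adjusted p = 0.0669), Zfp445, which shares its role at imprints, by 0.098 ± 0.037 (0.151), and Trim28, their common scaffold, by -0.013 ± 0.038 (0.892). Hells, Setdb1, Zfp445 and Trim28 were singled out after their values had been seen.

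In the other groups only Ogt passed. Of 19 further erasers and partners, 18 did not pass, including Neil1, a DNA repair glycosylase, at 0.127 ± 0.043 (SE; adjusted p = 0.111). Of the 19, 4 had an unadjusted p under 0.05. The share of all probe sets at that level, for this and the following counts, was 19.1%. The thymine DNA glycosylase Tdg, which removes the bases that Tet enzymes have oxidised and was likewise singled out afterwards, differed by 0.019 ± 0.044 (adjusted p = 0.852). None of 6 further genes of reader families passed, with Mbd6 at 0.153 ± 0.052 (adjusted p = 0.116) and Zbtb4, a zinc-finger reader, at -0.060 ± 0.049 (0.528). Of the 6, 1 had an unadjusted p under 0.05, and it was Mbd6. Whether each protein of these families binds methylated CpGs was not examined here. None of 16 corepressor subunits passed, with Hdac3 at 0.092 ± 0.028 (0.0864) and Hdac2 at 0.087 ± 0.045 (0.302), and again 1 had an unadjusted p under 0.05. The same held for 16 genes listed with methyl donor supply. Ahcyl1 and Ahcyl2, listed as relatives of Ahcy, differed by 0.086 ± 0.032 (0.145) and 0.067 ± 0.034 (0.292). Ahcy itself, also singled out afterwards, differed by -0.036 ± 0.048 (0.728).

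**Figure D3:**
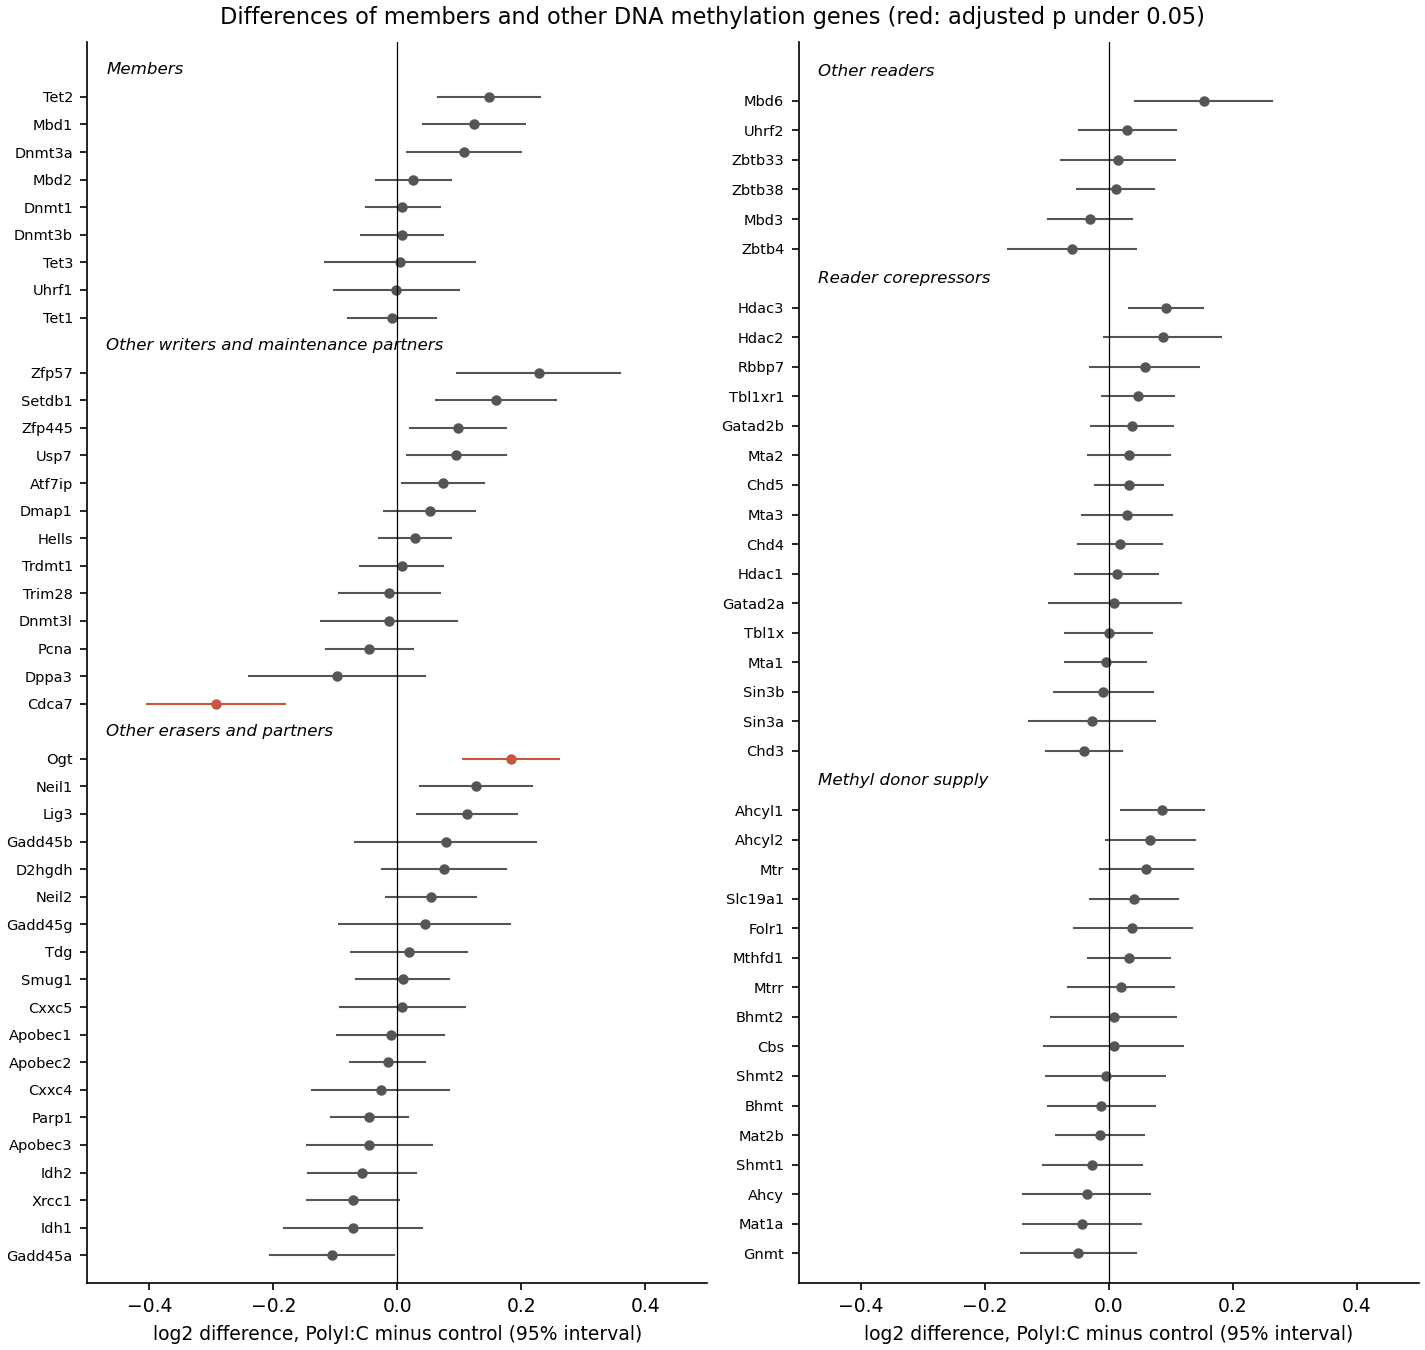
Log2 differences, PolyI:C minus control (x axis), with 95% intervals from limma for the 9 members and 70 other genes of DNA methylation, grouped by role and ordered by size within each group. Ogt (0.183) and Cdca7 (-0.293), in red, are the genes with an adjusted p under 0.05.

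Markers of cell types were set beside these values. All 11 lists, with that of dividing cells below, were chosen with earlier results of these data known. Their p-values are therefore descriptive and no independent tests. Markers of neurons were bright, with between 88.1% (Gad2) and 99.9% (Snap25) of probe sets below them, and their mean differed by 0.007. Transcripts known for detained introns include Ogt, and part of their RNA stays incompletely spliced in the nucleus. They were higher in all 14 measured members, 6 of them past the threshold. Spliced and unspliced copies were not told apart. Ogt is itself among the 14 and among the 6, so this list is not independent of the Ogt value. The mean of the list ran from 7.48 to 7.69 in controls and from 7.71 to 7.92 in PolyI:C animals (exact permutation p = 0.0022, two-sided, adjusted over 11 lists 0.024). Myelin markers were lower in all 8 members, 5 past the threshold, with means of 7.79 to 8.15 in controls and 7.34 to 7.84 in PolyI:C animals (exact permutation p = 0.0065, adjusted 0.024). Striatal neuron markers were lower in all 6 measured members, 1 past the threshold, with means of 5.82 to 6.48 against 5.74 to 5.92 (exact permutation p = 0.0043, adjusted 0.024). Beside these counts, 2.02% of all probe sets passed as higher and 0.805% as lower. Upper-layer neuron markers were higher by 0.109 (exact permutation p = 0.017, adjusted 0.048). Deep-layer markers differed by -0.090 (exact permutation p = 0.030, adjusted 0.058) and oligodendrocyte precursor markers by -0.088 (0.037, adjusted 0.058). The deep-layer members were uneven, at -0.199 (Ntsr1), -0.159 (Bcl11b, which passed), -0.119 (Foxp2), -0.068 (Tle4), -0.008 (Fezf2) and 0.012 (Tbr1). So were the precursor members, at -0.167 (Sox10), -0.092 (Olig1), -0.064 (Cspg4) and -0.03 (Pdgfra), and none of them passed. Neither mean therefore describes every member of its list. The lists for astrocytes, microglia and endothelium differed by -0.029, -0.016 and -0.034, with adjusted p of 0.60, 0.65 and 0.15 in the same exact permutation test. Several of these lists differed between the groups, and their part in the values of Ogt and Cdca7, and in those of Tet2, Mbd1 and Dnmt3a, which did not pass, was not tested. In bulk tissue, fewer cells of a type and less RNA per cell cannot be told apart.

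Dnmt1 and Uhrf1 act at replication, and markers of dividing cells were set beside them. Whether the level of either gene follows dividing cells was not tested. Dnmt1 had 76.1% of probe sets below it and Uhrf1 33.1%. These shares, like those of the markers that follow, describe brightness and are not compared between probe sets. The markers of dividing cells were dim, with between 10.3% (Bub1) and 47.4% (Mcm5) of probe sets below them. Their mean ran from 4.50 to 4.76 in controls and from 4.46 to 4.60 in PolyI:C animals, a log2 difference of -0.117 (exact permutation p = 0.035, two-sided, adjusted 0.058), with 0 of 8 past the threshold in limma and 5 at an unadjusted p under 0.05 (Bub1, Rrm2, Ccna2, Mki67 and Cdk1, all with lower means), where 7.33% of all probe sets were lower at that level. Mcm2 and Mcm5 had higher means, by 0.008 and 0.028. Without controls 5 and 6 the mean of the list differed by -0.0699. Bub1 was nearest, at -0.164 ± 0.043 (adjusted p = 0.0525).

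Variation between animals within the groups was then compared, on values centred on each group mean. Among the 36 pairs of the 9 genes, Pearson's r ran from -0.67 to 0.85, 13 pairs were above 0, and no pair passed after adjustment over the 36. Dnmt3a and Tet3 were the closest pair (r = 0.85, permutation p = 0.0028; Spearman's rho = 0.77, permutation p = 0.010; n = 12; adjusted p = 0.10). The correlation was 0.76 among controls and 0.91 among PolyI:C animals. It was 0.72 without the 2 animals farthest from the median of Dnmt3a and 0.58 without the 2 farthest from the median of Tet3. Control 3 and PolyI:C 5 were the lowest of their groups in both genes, at 6.82 and 6.89 for Dnmt3a. The other probe set of Tet3 correlated with Dnmt3a at r = 0.63.

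Among the members nearest the threshold, no pair passed either. Tet2 and Mbd1, both higher on average in PolyI:C animals, had r = -0.31 within groups (permutation p = 0.37; rho = -0.24, permutation p = 0.47; n = 12; adjusted p = 0.58). Without the 2 animals farthest from the median of Tet2 it was -0.27, and without the 2 farthest in Mbd1 it was 0.09, so the sign was not stable. Dnmt3a and Tet2 had r = 0.61 (permutation p = 0.058; rho = 0.61, permutation p = 0.064; n = 12; adjusted p = 0.35), with 0.26 without the 2 animals farthest in Dnmt3a and 0.44 without the 2 farthest in Tet2. The readers Mbd1 and Mbd2 had r = 0.57 (permutation p = 0.027; rho = 0.72, permutation p = 0.014; n = 12; adjusted p = 0.33), with 0.70 without the 2 animals farthest in Mbd1 and 0.44 without the 2 farthest in Mbd2. PolyI:C 5 combined the highest level of Mbd1 and Uhrf1 in its group with the lowest of Dnmt3a and Tet3.

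**Figure D4:**
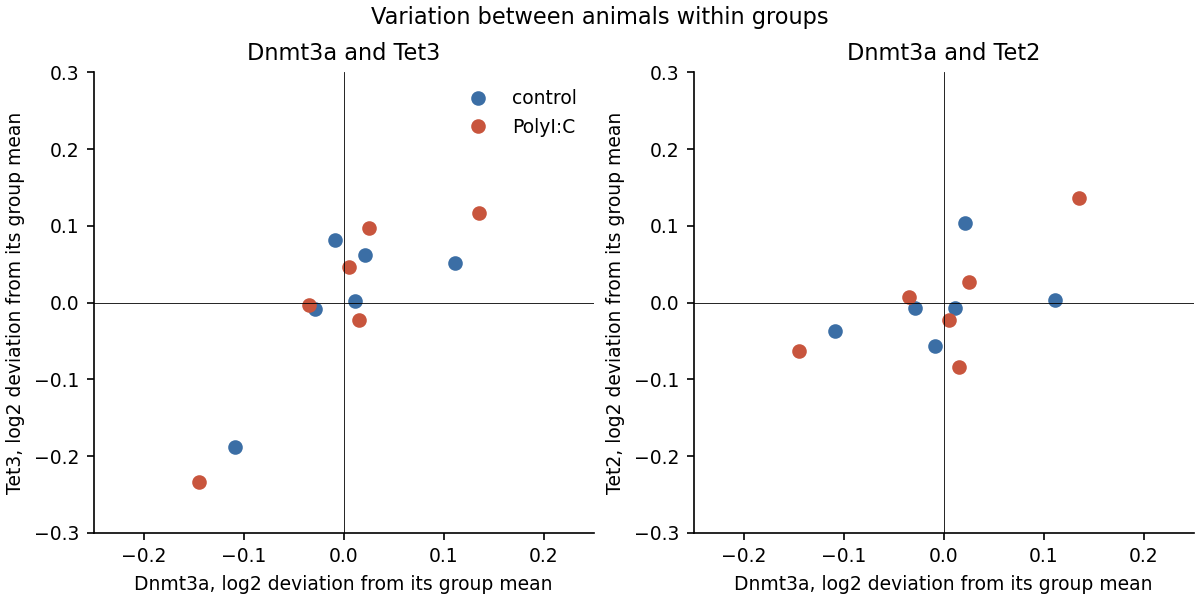
Deviation of each animal from its group mean (log2) for Dnmt3a (x axis) against Tet3 and Tet2 (y axes), with control animals in blue and PolyI:C animals in red. The pair with Tet3 (r = 0.85, n = 12) has control 3 and PolyI:C 5 at the lower left, and the pair with Tet2 (r = 0.61, n = 12) is stretched by PolyI:C 1 and PolyI:C 5.

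For the gene with the lowest p in each role, the 3 genes with the most similar variation within groups were sought among 18819 others. For Tet2 these were Tfap2e (r = 0.90), Zfp457 (0.89) and Tatdn3 (0.88), and none of them passed in the comparison of the groups. For Mbd1 they were Pgp (0.94), Prodh, the proline dehydrogenase (0.93), and the dopamine receptor gene Drd4 (0.92), with group differences of 0.04, -0.00 and 0.05. For Dnmt3a they were Dmd, which encodes dystrophin (0.90), 4930578G10Rik (0.90) and Sorbs2 (0.89). Dmd was 0.20 ± 0.04 and 4930578G10Rik 0.59 ± 0.12 higher in PolyI:C animals (SE; adjusted p = 0.023 and 0.016 in limma), while Sorbs2, at 0.15 ± 0.05, did not pass (0.097). These coefficients are the highest of many over 12 animals that share arrays and tissue, and they describe likeness alone.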

How the data were processed

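The authors deposited a table of log2 expression, 1 value per probe set and array, the scale being read from the values. Per the submitters' processing notes, RMA and Partek 6.6 were used, in roles the notes leave out. The build was not given in the sources used here. The labels' protocols name both a 3′ and a whole-transcript labelling kit, and which was used is not clear. The stretch of a transcript behind each value is therefore uncertain, also for genes known for detained introns, such as Ogt. Background that remains after correction of the RMA kind compresses differences of dim probe sets. Of 35556 probe sets, 23099 carried a gene in the platform annotation and were tested, 21218 of them with a single symbol. Array medians lay between 5.15 and 5.21. Groups were compared in limma 3.58.1 under R 4.3.3 (lmFit, eBayes), PolyI:C minus control, two-sided, without covariates, with Benjamini-Hochberg adjustment over all 23099. The fit was tested on simulated independent values, with shifts larger than any member difference. How often smaller differences would be found was not examined. Marker lists were scored by their mean per animal and tested with an exact permutation test. Correlations used 100000 permutations within groups (Python 3.11.15, numpy 2.4.6, scipy 1.17.1). Figures were drawn with matplotlib 3.10.9. The number of arrays limits the precision. Named genes were the 9 members, every other gene of the wider list past the threshold with the 2 of lowest p in each of its groups, and the 3 most similar genes per role. Members, lists and tests were chosen with earlier results of these data known. Alternatives comprised a replicate block, array weights, other scalings, brightness filters, other eBayes settings, all rows, mean probe sets and leaving out animals.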

Additional observations from a re-analysis of the deposited data

Results flagged for a closer look

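In groups of 6 animals, 38 in all for 19 named genes, 3 had an animal at the end of the range far from the nearest other relative to the spread of its group, where chance gives about 1 in 20. Control 3 had a Tet3 level of 7.27, with the next lowest control at 7.45. PolyI:C 5 had an Mbd1 level of 7.56, with the next highest PolyI:C animal at 7.40. Control 5 had an Hdac3 level of 9.17, with the next highest control at 9.09, and without that animal Hdac3 did not pass either.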

How the results depend on the processing

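Of the 23099 probe sets, 653 passed, 414 when all rows of the table were tested, 122 without variance moderation and 230 to 818 when 1 animal was left out. The split of 467 higher and 186 lower became 239 and 285 after quantile normalization and 298 and 232 after median centring. None of the 9 members passed, and 1 of them, Tet2, did with array weights, when probe sets under the 25th or the 50th percentile of brightness were dropped, with eBayes trend and robust, without controls 5 and 6 and with the mean over all single-gene probe sets, and 0 to 1 when 1 animal was left out. Of the other genes of DNA methylation 2 passed, 4 at the 50th percentile, 0 without moderation and 2 to 4 when 1 animal was left out. The filter at the 50th percentile left Cdca7 out of the test and added Zfp57, Setdb1 and Hdac3 to Ogt (adjusted p = 0.0415, 0.0456 and 0.0481), and the additional genes were Zfp57 and Setdb1 without control 5 (0.0276 and 0.0387). Fitted with a replicate block, 536 probe sets and 0 members passed (Tet2 adjusted p = 0.0771), and the block changed no call of the 9 members or of the 10 named genes of the wider list. Animals with the same replicate number shared little deviation from their group means (r = -0.092 to 0.11, own number closest for 1 of 6), so the numbers were not taken as pairs.

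Directions of members near 0 were not stable. After quantile normalization Dnmt1 differed by -0.0231, Tet3 by -0.0276 and Mbd2 by -0.00501, and after median centring Dnmt1 by -0.00204, Dnmt3b by -0.00234 and Tet3 by -0.00616. Uhrf1 differed by 0.0257 without controls 5 and 6. Leaving out 1 animal gave ranges of -0.000723 to 0.0217 for Dnmt1, -0.00298 to 0.0216 for Dnmt3b, -0.0202 to 0.013 for Tet1, -0.0335 to 0.0512 for Tet3 and -0.0297 to 0.0285 for Uhrf1. Tet2, Mbd1 and Dnmt3a kept their direction in all 23 alternatives. The cause of these shifts was not tested.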
